A study of Mus musculus with 3 samples.

Results

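The comparison described here is that of heavy polysome RNA with top-of-gradient RNA in control cells, gene by gene. Its members were the genes whose probes were well above background in the control channel on both arrays, 11158 of the 27745 gene names on the array. The stromal cells were grown from lymph nodes of BALB/c mice, where such cells build the scaffold on which lymphocytes move. They received 400 pmol of control siRNA by Lipofectamine 2000, so they were transfected cells and not untouched ones. Medium was changed at 24 h, cells were harvested at 48 h, and 7 plates were pooled, lysed and spun through a continuous 10% to 60% sucrose gradient. A second pool, treated in the same way with siRNA against Eif4g3, was hybridised in the other dye to the same arrays and serves below for comparison only. RNA of the gradient was collected as top, light polysome and heavy polysome fractions, and 200 ng of each was labelled. There was 1 array for each fraction and therefore no replicate, so every value below is a description of these arrays, and array and fraction cannot be told apart.

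Polysome profiling sorts mRNAs by the number of ribosomes they carry. An mRNA in heavy polysomes is bound by many ribosomes, whereas RNA at the top of the gradient is free, bound in small particles or lightly loaded. The number of ribosomes on an mRNA depends on how often translation starts, how fast it proceeds and how long the coding sequence is, so short coding sequences cannot hold many ribosomes. Because equal amounts of RNA were labelled and arrays were brought to the same distribution, a value here is a gene's standing among the mRNAs of its fraction and not the share of its molecules in that fraction.

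Signals are given as normalized log2 values in the control channel, and the difference as log2 heavy minus top. A gene was called higher in heavy polysomes or higher in top when the difference reached 2-fold, a log2 value of 1 or -1. By this rule 2367 of 11158 genes (21.2%) were higher in heavy polysomes and 2394 (21.5%) were higher in top. Counts of called members in the gene lists below are to be read against these shares. Differences ran from -7.32 to 5.61, with quartiles at -0.84 and 0.85 and a median of 0.03. When arrays were scaled to the same median instead, 1361 genes were higher in heavy polysomes and 3955 in top, so that 25.6% of the called genes were on the heavy side against 49.7% in the values used here. That scaling moved the median of all genes to -0.44.

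Control intensities were lowest in top, where the upper quartile was 40.5, and reached 288 in light and 1078 in heavy. Spots repeated 10 times per probe had a median SD of 0.06, 0.09 and 0.12 on the log2 scale in top, light and heavy, and no spot was saturated. Different probes of a gene disagreed more, with a median SD of 0.64 over the 2910 genes measured by at least 2 probes. In 144 of those genes, probes passed 2-fold in opposite directions. The other 8248 genes rest on 1 probe each.

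Most long noncoding RNAs had more signal at the top of the gradient than in heavy polysomes. Of 133 genes that RefSeq classes as lncRNA, 90 (67.7%) were higher in top, 1 was higher in heavy polysomes, and the median difference was -1.44. Among 9883 protein-coding genes 18.4% were higher in top and 22.3% in heavy polysomes, with a median of 0.11. The one lncRNA on the heavy side was 9330151L19Rik, at 5.15 in top, 6.63 in light and 6.34 in heavy. In the cells given Eif4g3 siRNA the lncRNA median was -1.57. Classes by RefSeq type were looked at after the values had been seen, and lncRNA probes were dimmer than coding ones, with a median signal of 7.12 against 8.84.

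**Figure D1:**
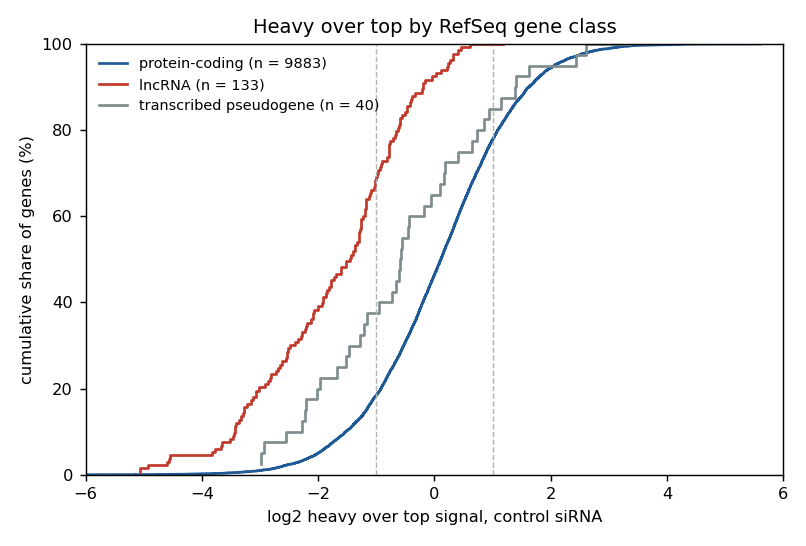
Cumulative share of genes (y axis, percent) against log2 heavy over top signal in control cells (x axis), for protein-coding genes, lncRNAs and transcribed pseudogenes by RefSeq type, with dashed lines at 2-fold. The lncRNA curve lies to the left, with a median of -1.44 against 0.11 for protein-coding genes and -0.57 for 40 transcribed pseudogenes.

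Rmrp, the RNA component of the RNase MRP ribonucleoprotein that processes ribosomal and mitochondrial RNA, had the lowest value of any gene measured. Its signal was 13.17 in top, 7.87 in light and 5.85 in heavy, a difference of -7.32, from a probe at chr4:43513920-43513979 on the minus strand of mm8. The loss was already present in the light fraction. Terc, the telomerase RNA, was near the lower limit of detection with 4.89 in top and 5.14 in heavy, and its difference of 0.25 gave no call.

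Host genes of small nucleolar RNAs carry snoRNAs in their introns, while their spliced transcripts have short or no open reading frames. Matched through current symbols, 6 of 15 listed hosts were measured; 5 were higher in top, none was higher in heavy polysomes, and the median was -3.14. Gas5 stood at 15.43 in top, 14.02 in light and 10.88 in heavy, a difference of -4.55, read by a probe placed at chr1:162873990-162874682 of mm8. Snhg3, Snhg5 and Snhg7 differed by -3.51, -3.16 and -3.13, and Epb41l4a, a coding host, by -1.17. Snhg8 was the exception among the lncRNA hosts of the list, at -0.59 in control cells and 0.57 after Eif4g3 siRNA. Among hosts outside the list, chosen after their values were seen, Zfas1 was at -4.93, Snhg16 at -3.47, Snhg20 at -3.45 and Snhg17 at -2.92. Snhg14, also outside the list, was at -0.79 and gave no call. For Gas5, Snhg3, Snhg5 and Zfas1 the step from light to heavy was larger than that from top to light, unlike in Rmrp, and for Snhg7 the steps were alike, from 8.23 in top to 6.66 and 5.10.

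Long noncoding RNAs known from the nucleus were also seen. Neat1, which scaffolds nuclear paraspeckles, had 10.88 in top, 9.17 in light and 7.22 in heavy, a difference of -3.67. Rian, an imprinted transcript of the Dlk1-Dio3 region, was at -3.36, whereas Meg3 of the same region was at -0.05 and Tug1 at 0.33. Over the 7 measured members of the list of noncoding RNAs 3 were higher in top and none in heavy polysomes, with a median of -0.78. For the 5 members found by array name the median turned to 0.05 relative to all genes when arrays were normalized by loess.

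Ribosomal protein mRNAs had less signal in heavy polysomes, relative to top, than the median coding mRNA. These mRNAs begin with a 5′ terminal oligopyrimidine tract, a run of C and T right at the cap, through which mTOR signalling controls their translation, and their coding sequences are short. None of the 32 small-subunit and none of the 47 large-subunit genes was higher in heavy polysomes, against 21.2% of all genes. Higher in top were 15 of 32 small-subunit genes with a list median of -0.87, and 15 of 47 large-subunit genes with a median of -0.54. After Eif4g3 siRNA the medians were -0.74 and -0.69. Relative to all genes the control medians were -0.90 and -0.57, and they moved to -2.34 and -1.94 when arrays were scaled to the same median. These genes have many near-identical pseudogene copies, so a probe may read more than the named gene.

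Within the family the spread was wide. Rpl41, one of the shortest proteins known, had 17.16 in top, 17.18 in light and 14.46 in heavy, a difference of -2.70 that arose between the light and the heavy fraction. Rps29, another very small protein, behaved in the same way with 16.70, 16.89 and 14.20. Rps21 fell steadily, from 15.60 in top to 14.28 and 13.02, with an SD of 0.90 over 3 probes. Rpsa was at -2.57 in control cells and -4.25 after Eif4g3 siRNA, with an SD of 1.49 over 2 probes in the control channel. At the other end stood Rpl15 with 13.92, 14.07 and 14.67, Rpl8 with a difference of 0.64, Rpl3 with 0.57 and Rps3 with 0.44, all below 2-fold.

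**Figure D2:**
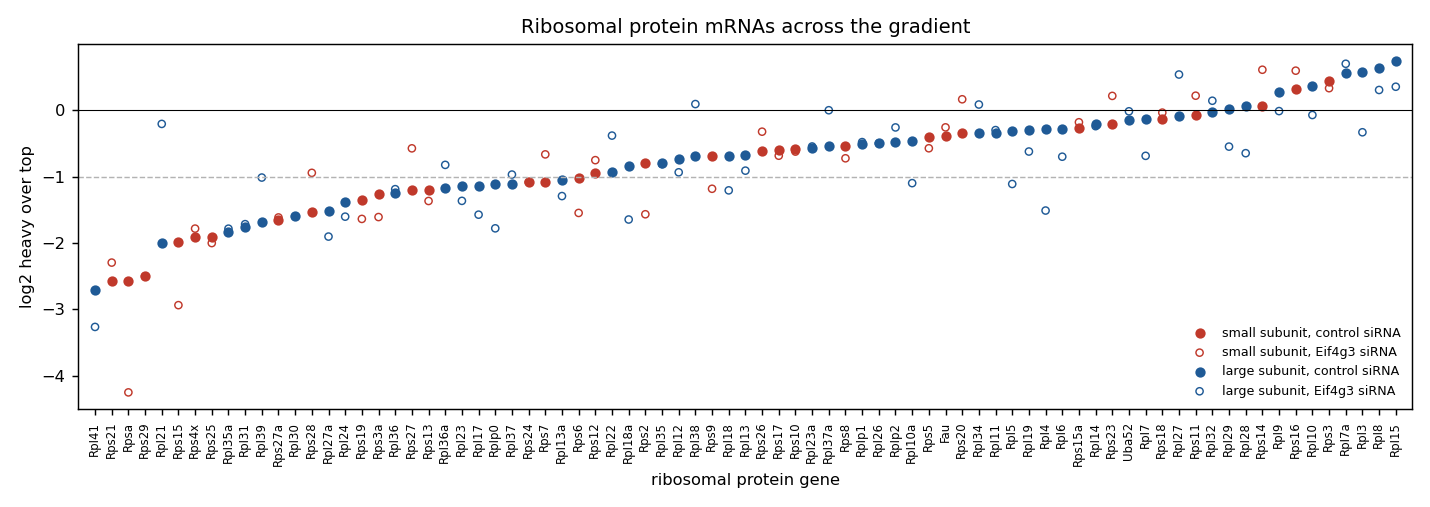
Log2 heavy over top signal (y axis) of each of 79 measured ribosomal protein genes (x axis, ordered by the control value), filled for control and open for Eif4g3 siRNA cells, red for the small and blue for the large subunit; the dashed line marks 2-fold. Control values run from -2.70 for Rpl41 to 0.75 for Rpl15, and no gene reaches 2-fold on the heavy side.

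The start of the mRNA was read from RefSeq gene starts on GRCm38.p6 to see which of these genes carry the tract there. Searched was a C followed by at least 4 bases that are each C or T, beginning within 2 bases of the annotated start, on the sense strand only. It was found in 2942 of 32851 annotated starts (8.96%), in 991 of 7992 measured protein-coding genes (12.4%) and in 21 of 58 ribosomal protein genes (36.2%). An annotated start that is off by a few bases hides a tract, so a missing match says nothing about the mRNA. Shown are the 3 lowest and the 3 highest genes with a match among ribosomal proteins, elongation factors and other mRNAs of this class, from 10 bases before the start to 20 from it, with the tract in capitals.
Rps21: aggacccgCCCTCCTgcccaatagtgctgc
Rpl35a: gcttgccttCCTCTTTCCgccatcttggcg
Rpl27a: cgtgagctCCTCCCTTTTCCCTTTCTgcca
Rpl15: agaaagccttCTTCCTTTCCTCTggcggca
Vim: ttgtccagtCCTCTgccactcttgctccgg
Nap1l1: gctctcgggtCTTTTTTagcgccatctgct
They lie at chr2:180257369-180257398 on the plus strand, chr16:33056472-33056501 on the plus strand and chr7:109519185-109519214 on the plus strand for Rps21, Rpl35a and Rpl27a. Rpl15 lies at chr14:18270967-18270996 on the minus strand, Vim at chr2:13574301-13574330 and Nap1l1 at chr10:111473217-111473246, both on the plus strand.

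The differences of these 6 genes were -2.58, -1.83, -1.52, 0.75, 1.04 and 1.08 in the order shown. Their tracts were 7, 9, 18, 13, 5 and 7 bases long in the same order. Ribosomal protein genes with a match had a median of -0.68 and those without one a median of -0.93. Over all measured coding genes the medians were 0.16 with and 0.11 without a match. Elongation factors and other mRNAs of this class had a median of 0.65 for 4 genes with a match and -0.35 for those without, and initiation factors 1.13 for 4 genes with one and 0.46 without.

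Elongation factors and other mRNAs of the same class were spread to both sides, with 4 of 16 higher in top and 2 higher in heavy polysomes. The top share was near the 21.5% of all genes, and the list median was -0.16. Higher in top were Pabpc1, the poly(A)-binding protein, at -1.55, Btf3 at -1.24, Eef1b2 at -1.20 and Tpt1 at -1.10. On the heavy side were Nap1l1, a histone chaperone, and Vim, the intermediate filament protein of mesenchymal cells. Btf3 had 2 probes with an SD of 2.49 between them, and Vim turned to -0.53 when arrays were scaled to the same median. The list's median relative to all genes became 0.07 without the filter on dim probes and 0.31 with the brightest probe of each gene.

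Initiation factors bring the ribosome to the mRNA, and 9 of 28 were higher in heavy polysomes and 4 in top, with a median of 0.46. The scaffold Eif4g1 had the largest difference, with 7.35 in top, 9.39 in light and 10.67 in heavy, or 3.32. Its relative Eif4g3, the target of the siRNA in the other pool, had 8.81, 9.68 and 10.70, a difference of 1.88 with an SD of 0.18 over 2 probes, and 0.87 in the siRNA-treated cells. Eif4g2 was at 0.71, with an SD of 1.45 over 4 probes. Eif5a at 2.58, Eif3s9, a subunit of the large eIF3 complex, at 2.28, and Eif4a3, the helicase of the exon junction complex, at 2.16 were also on the heavy side. The top side held Eif5 at -1.86, Eif1 at -1.39, Eif4e3 at -1.32 and Eif1b at -1.12. The Eif5 value comes from 1 of its 3 probes, which gave -5.79 against 0.16 and 0.07. The 2 Eif1 probes gave -0.66 on chromosome 11 and -2.12 on chromosome 1 of mm8. Eif5 and Eif1 both act in choosing the start codon. With the brightest probe alone Eif5 turned to 0.07.

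The enzymes that charge tRNAs with amino acids were mostly on the heavy side, where 13 of 19 aminoacyl-tRNA synthetases were called and none was higher in top. Their median was 1.41 in control and 1.03 in siRNA-treated cells. Farsb rose from 4.61 in top to 7.73 in light and 8.40 in heavy, Iars from 7.37 to 9.02 and 10.45, and Aars from 8.85 to 9.64 and 11.83. The top signal of Farsb lay close to the limit of detection, and its difference of 3.80 was 1.71 after Eif4g3 siRNA. Sars was the lowest, at -0.31 in control cells and -1.35 after Eif4g3 siRNA.

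Genes of the integrated stress response lay on both sides. In this response, short upstream reading frames keep ribosomes from the main coding sequence of Atf4 until the initiation factor eIF2 is phosphorylated. Atf4 had 11.37 in top, 10.52 in light and 8.76 in heavy, a difference of -2.61, and -2.63 after Eif4g3 siRNA. Ddit3, the transcription factor CHOP with an upstream reading frame of its own, had 9.65, 8.66 and 7.33, and Atf5 differed by -1.54. Gadd45a at -1.29 and Sesn2 at -1.09 were the other members of the list in top. Members of the list on the heavy side were Asns, asparagine synthetase, at 1.28, Atf3, 2.15-fold higher, Xbp1 at 2.03 and Cebpa at 2.13. The top signal of Cebpa, 5.32, lay close to the limit of detection. Ppp1r15b at 0.53, Chac1 at 0.52, Ibtk at 0.03 and Cebpb at -0.11 were among those without a call. The part of upstream reading frames in these positions was not tested. In all 5 of 16 members were higher in top and 4 in heavy polysomes, so the list did not move as a group and its median was 0.18. Ddit4, at -0.17 in control cells, was at -1.82 after Eif4g3 siRNA.

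Iron genes divided by role. The ferritin subunits store iron, and when iron is scarce, iron regulatory proteins bind a hairpin near the cap of their mRNAs and block translation. Fth1, the heavy subunit, had 16.49 in top, 15.66 in light and 15.02 in heavy, and Ftl1, the light subunit, had 13.75, 12.36 and 11.97, differences of -1.47 and -1.78. The light-chain pseudogene Ftl2, whose probe may read Ftl1, was at -1.86. Aco1, which is itself the iron regulatory protein when it lacks its iron-sulphur cluster, was at 2.85, Alas1, the first enzyme of haem synthesis, at 2.31, and Hmox1, which breaks haem down, at 1.28. Tfrc, the transferrin receptor, was at 0.90. Of 10 measured members 4 were higher in top and 3 in heavy polysomes.

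Polyamine genes, many of which are controlled through translation, had 4 of 12 members higher in top and 1 higher in heavy polysomes. For all genes these shares were 21.5% and 21.2%. Sat1, which acetylates polyamines for export, was at -1.81 with an SD of 1.70 over 2 probes, Amd2 at -1.65, and the antizymes Oaz1 and Oaz2, which need a ribosomal frameshift, at -1.20 and -1.15. Srm, spermidine synthase, was at 2.46. Odc1, the first enzyme of the pathway, was at -0.43.

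Selenoprotein mRNAs read a UGA codon as selenocysteine. None of 12 was higher in heavy polysomes and 6 were higher in top, with a median of -0.78. Sepw1, now named Selenow, had 15.53 in top, 12.84 in light and 9.34 in heavy, a difference of -6.19, and -6.25 in the siRNA-treated cells, from 1 probe at chr7:15075726-15075785 on the minus strand of mm8. It was the lowest protein-coding gene measured. Txnrd2 was at -2.26, Selm at -2.02 and Sephs2 at -1.55, while the glutathione peroxidases Gpx4 and Gpx1 were at -1.09 and -1.05. Txnrd2 turned to 0.08 when dim probes were kept. The highest members were Gpx3 at 0.95, Selk at 0.91 and Txnrd1 at 0.62.

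**Figure D3:**
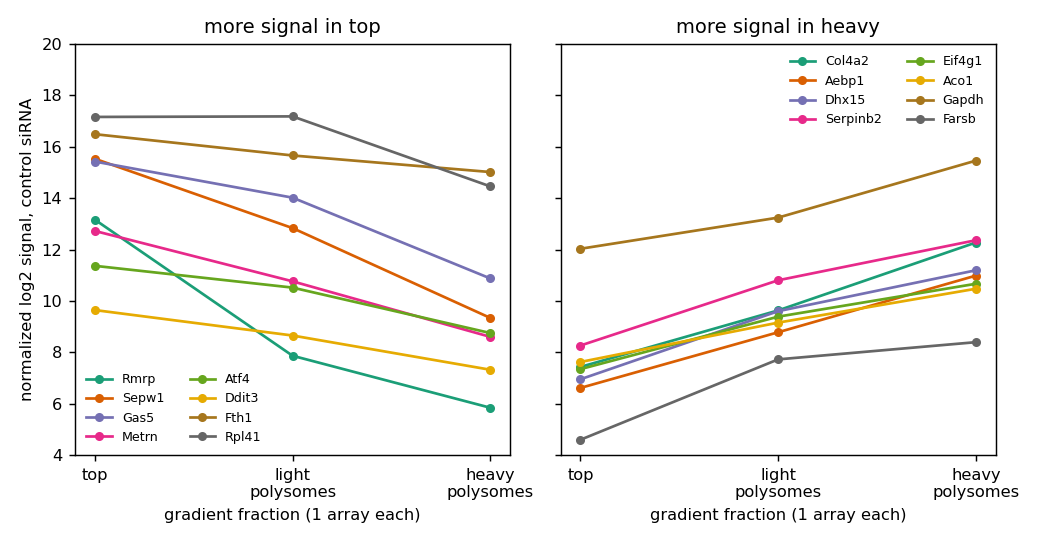
Normalized log2 signal of the control channel (y axis) in the top, light and heavy fractions (x axis, 1 array each) for 8 genes with more signal in top and 8 with more in heavy. Rmrp drops from 13.17 to 7.87 between top and light, whereas Rpl41 stays at 17.16 and 17.18 before falling to 14.46 in heavy.

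Genes for the extracellular matrix were on the heavy side. Stromal cells secrete the fibres of the lymph node, and collagen chains are long proteins made on the endoplasmic reticulum. Of 19 measured collagen genes 12 were higher in heavy polysomes and 2 in top, with a median of 1.44 against 0.03 for all genes. Col6a1 had the highest value of any gene, with 4.74 in top, 8.31 in light and 10.35 in heavy, and its top signal lay close to the limit of detection. Col4a2 had 7.44, 9.64 and 12.28, a difference of 4.84, with values of 3.79 and 5.89 for its 2 probes at chr8:11448812-11448871 and chr8:11448152-11448211 of mm8. Col5a2 at 3.43, Col1a2 at 2.64, Col12a1 at 2.60 and Col4a1 at 2.52 followed. Col4a4 at -2.58 and Col4a6 at -2.08, chains of basement membrane collagen, were in top. Col1a1 was at 0.62, and its 3 probes ran from -0.77 to 1.83.

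Matrix glycoproteins and proteoglycans had 20 of 31 members higher in heavy polysomes and none higher in top, with a median of 1.24. Nid2 at 3.41 and Lamc1 at 2.65 belong to basement membranes, and Thbs2 at 2.99, Tnc at 2.10 and Postn at 2.08 to the matrix of remodelling tissue. The top signal of Nid2, 5.05, lay close to the limit of detection. Spp1, osteopontin, had 15.41 in top, 17.64 in light and 17.34 in heavy. Fbln1 at -0.94 was the lowest. After Eif4g3 siRNA the medians were 0.97 for collagens and 1.14 for glycoproteins.

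The machinery that folds and exports these proteins had 14 of 34 members higher in heavy polysomes and 1 in top. P4hb, protein disulphide isomerase and a subunit of the collagen prolyl hydroxylase, had 10.13 in top, 12.23 in light and 13.31 in heavy, and P4ha1, the catalytic subunit, was at 2.45 and Hspa5, the chaperone BiP, at 2.28. Plod2, a collagen lysyl hydroxylase, was at -1.45. The small translocon subunits Sec61g and Sec61b were at -0.73 and -0.20.

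Lysosomal genes were on the heavy side in 15 of 27 cases and in none on the top side, with a median of 1.29. Ctsk, a protease that cuts collagen, was at 2.82 in control and 4.09 in siRNA-treated cells, and Psap, the precursor of the saposins, was at 2.70. Npc1 was the lowest at -0.26. Class I antigen presentation had 6 of 12 members higher in heavy polysomes. H2-Q7, H2-D1 and H2-T23 were at 2.36, 2.33 and 2.30, and these class I genes are alike in sequence. Psmb10, a subunit of the immunoproteasome, was the 1 member in top, at -1.94.

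Receptors at the cell surface lay on both sides. Of 24 growth factor receptors 11 were higher in heavy polysomes and 2 in top. Fgfr1 was at 2.81, with an SD of 1.11 over 3 probes, and Axl at 2.65. The top signal of Fgfr1, 4.71, lay close to the limit of detection. Ltbr, the lymphotoxin receptor through which lymph node stroma is organised, had 14.08 in top, 13.09 in light and 12.74 in heavy, a difference of -1.33, and Flt1 was at -1.08. Among 12 integrin chains, 5 were on the heavy side, Itga5 at 2.73, Itga6 at 1.90, Itga11 at 1.59, Itgb5 at 1.30 and Itgb7 at 1.05, and Itga1 at -1.66 and Itgb3 at -1.41 were in top. Itga1 turned to 0.70 when dim probes were kept.

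Contractile and actin genes had 14 of 25 members higher in heavy polysomes, 3 in top and a median of 1.07. Relative to all genes that median became -0.10 when arrays were scaled to the same median, so its direction depends on the scaling. Actg1 had 12.38 in top, 13.88 in light and 15.48 in heavy, and Actg2, Actn1 and Tagln2 were at 3.03, 2.74 and 2.72. Actb was at -2.13, but its 2 probes gave -4.06, at the probe on chromosome 5 of mm8, and -0.21, at one placed on chromosome X, so the size of its difference is uncertain. The thymosins Tmsb10 and Tmsb4x, very small proteins that bind actin monomers, were at -3.55 and -2.03. For Tmsb4x the signal was 15.90 in top, 16.69 in light and 13.87 in heavy, with its maximum in the light fraction.

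Tubulins had 6 of 13 members on the heavy side and 2 on the top side. Tubb2c reached 4.11, from 6.45 in top to 8.34 and 10.56, while Tubb3 was at -1.42 and Tubb2b at -1.18, and Tubb3 turned to 0.65 among brighter probes only. A list named very large cytoskeletal and motor proteins was also described, though protein lengths were not analysed. Of 20 members 9 were higher in heavy polysomes and none in top, with a median of 0.94, led by Myh10 at 2.99, Kif5b at 2.65 and Tln1 at 2.25. The top signal of Myh10, 4.63, lay close to the limit of detection. Kif1b at -0.94 and Iqgap1 at -0.58 were the lowest.

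Glycolytic genes were on the heavy side in 12 of 18 cases, with 1 in top and a median of 1.39. Gapdh had 12.03 in top, 13.25 in light and 15.46 in heavy, Aldoa 14.10, 15.08 and 16.72, and Ldha 12.92, 13.83 and 15.07. The neuronal enolase Eno2 was in top, at -1.18. The median after Eif4g3 siRNA was 0.74. Sterol and fatty acid synthesis had 11 of 28 members higher in heavy polysomes and 1, Insig2 at -1.47, higher in top, with Nsdhl at 2.67 and Fdps at 2.36 the highest.

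Cytosolic chaperones had 13 of 19 members higher in heavy polysomes and none in top. Hspa1a, the inducible Hsp70, was at 3.12, Cct3, a subunit of the chaperonin that folds actin and tubulin, at 3.11, and Hspb1 at 2.01. Proteasome subunits had 14 of 33 members on the heavy side and none in top, with Psmb2 at 2.59 the highest. Their medians were 1.30 and 0.97.

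**Figure D4:**
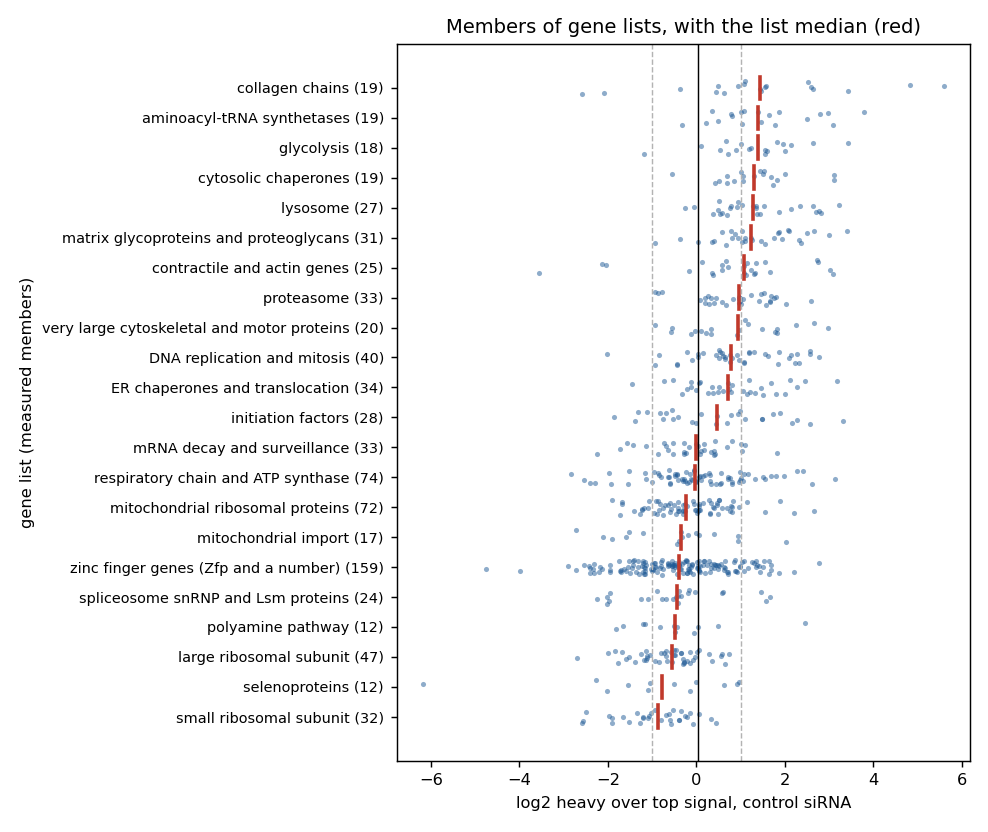
Log2 heavy over top signal in control cells (x axis) of each measured member of 22 gene lists (y axis, number of measured members in brackets); red bars are list medians, the black line the median of all genes and dashed lines 2-fold. Medians run from -0.87 for the small ribosomal subunit to 1.44 for collagen chains, and most lists have members on both sides.

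Nuclear-encoded genes of the respiratory chain and ATP synthase reached far to both sides around a median of -0.03. Of 74 genes 14 were higher in heavy polysomes and 11 in top, below the 21.2% and 21.5% of all genes. Among the highest were Sdha at 3.14, Atp5b at 2.61 and Sdhb at 2.29. The top signal of Sdha, 5.3, lay close to the limit of detection. The lowest were Cox7a2l at -2.84, Ndufa2 at -2.53, Atp5e at -2.40 and Cox7c at -2.30. Atp5e had 15.96 in top, 16.23 in light and 13.56 in heavy, again with its maximum in light. Among genes for mitochondrial import Timm8b and Timm8a1 were lowest, at -2.72 and -2.12, and the outer membrane pore Tomm40 was highest, at 2.03. Of the other small Tim proteins Timm13 was in top at -1.51, whereas Timm9 at -0.45 and Timm10 at -0.32 gave no call. Of 17 import genes 6 were higher in top and 1 in heavy polysomes. Mitochondrial ribosomal proteins had 11 of 72 members in top and 5 on the heavy side, again below the shares of all genes. The 5 were Mrpl37 at 2.66, Mrpl4 at 2.20, Mrpl3 at 1.90, Mrps27 at 1.56 and Mrpl39 at 1.14. Protein length was not analysed here.

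Genes of the spliceosome's small nuclear ribonucleoproteins and of Lsm proteins were found on both sides. Lsm and Sm proteins form rings around small nuclear RNAs, but the list also holds proteins outside these rings, such as Snrpa1. Of its 24 genes 7 were higher in top and 3 in heavy polysomes, with a median of -0.44. Lsm6 had 11.34 in top, 10.74 in light and 9.09 in heavy, with an SD of 0.74 over 4 probes. Lsm5, Snrpg, Lsm3 and Lsm7 lay between -2.02 and -1.94, and Snrpa1, Snrpb and Lsm2 at 1.68, 1.58 and 1.47. Splicing regulators of the SR and hnRNP families had 6 of 28 on the heavy side, near the 21.2% of all genes. Hnrpr was the highest at 2.42, and 3 were in top. One of those, Sfrs10, had probes that disagreed by an SD of 4.47, and Hnrpdl was at -1.24. Clk4, a kinase of splicing factors, was at -1.84 and turned to 0.12 when dim probes were kept.

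Histone genes had 7 of 26 members higher in top and 2 in heavy polysomes, against 21.5% and 21.2% of all genes. The replication-dependent histones Hist1h2ab at -2.29 and Hist1h1e at -2.14 were the lowest. Variant histones were on both sides, with H3f3a at 1.67 and H2afx at 1.17 on the heavy side and H2afv at -1.36 in top. Genes of DNA replication and mitosis were higher in heavy polysomes in 17 of 40 cases, with Cdc2a, the main mitotic kinase, at 2.77, Ccnd2 at 2.58 and the helicase subunits Mcm3 and Mcm4 at 2.56 and 2.33. Cenpa, the centromeric histone, was the only one of that list in top, at -2.02.

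Zinc finger genes named Zfp with a number, most of which encode transcriptional regulators, had 47 of 159 members (29.6%) higher in top against 21.5% of all genes, and 20 (12.6%) on the heavy side against 21.2%. Zfp652 had 12.39 in top, 7.66 in light and 7.63 in heavy, Zfp560 was at -4.00, and Zfp207 and Zfp106 were at 2.78 and 2.21, each with 2 probes that differed by an SD under 0.2. The list median of -0.38 turned to 0.02 relative to all genes when dim probes were kept. A further 64 members were measured on the heavy array alone.

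Immediate early genes had 10 of 31 members (32.3%) higher in heavy polysomes, with Myc at 2.10, from 3 probes with an SD of 0.10, Egr3 at 1.97 and Fos at 1.43, and 2 in top, Ier2 at -1.95 and Dusp2 at -1.12. The top signals of Egr3 and Fos, 5.14 and 5.21, lay close to the limit of detection. Fos turned to -0.24 when arrays were scaled to the same median. Among chemokines and cytokines, Ccl2, which draws monocytes, had 12.91 in top, 14.93 in light and 15.32 in heavy, and Csf1, the macrophage growth factor, was at 1.89 but at -0.22 under median scaling. Fgf7 had 13.14, 12.48 and 10.85, and Ccl5 was at -1.40 with an SD of 0.19 over 2 probes. In all 5 of 32 were higher in top, with Tnfsf11 at -1.61, Il33 at -1.02 and Tgfb2 at -1.01 the others. Vegfa at 1.43, with an SD of 1.58 over 3 probes, and Hgf at 1.14 completed the 4 on the heavy side. Both counts lay below the shares of all genes, 21.5% in top and 21.2% in heavy polysomes. Interferon-stimulated genes, below these shares as well, had 3 of 22 on the heavy side, Ifitm2 at 1.87, Ifih1 at 1.20 and Oasl2 at 1.15. The 2 in top were Ifi27 at -2.36 and Stat2 at -1.17, and Stat2 turned to 0.06 among brighter probes.

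Some individual genes with at least median signal stood furthest out. On the heavy side, besides Col4a2, were Aebp1, a secreted protein of collagen fibres, with 6.62 in top, 8.79 in light and 10.99 in heavy, and Dhx15, an RNA helicase of the spliceosome, with 6.96, 9.61 and 11.20 and an SD of 0.09 over 2 probes. Serpinb2, a protease inhibitor, was 17.1-fold higher with an SD of 0.24 on the log2 scale, Ephx1, a detoxifying epoxide hydrolase, 15.5-fold with 0.32, and Plp2 10.9-fold with 0.09, each over 2 probes. Capn2, Sfn, Dctn1 and Map2k1, higher by 18.5-fold, 17.2-fold, 16.8-fold and 14.8-fold, rest on 1 probe each.

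On the top side, Metrn, a secreted neurotrophic factor, had 12.73 in top, 10.77 in light and 8.61 in heavy with an SD of 0.13 over 2 probes, a difference of -4.12. Others with at least 2 probes were Tusc2 at -3.82, Tmem134 at -3.80, Ccdc72, now Tma7, at -3.67, Zcchc17 at -3.45 and Dph3 at -2.96. Lst1, Spop, P2rx2, Fthl17, Zfp652, Pabpc2 and Cyp17a1, between -5.94 and -4.57, were each read by 1 probe. P2rx2 had 11.44 in top, 5.84 in light and 6.32 in heavy, and Cyp17a1, a steroid-making enzyme, 11.21, 6.13 and 6.64, so their signal outside the top fraction was low. Whether the probes of P2rx2, Cyp17a1, Lst1 and Fthl17 read the named transcripts was not tested.

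A further 4485 genes were measured on the heavy array alone and 182 on the top array alone. For these only a bound can be given, the bright signal divided by what the other array could still have shown, its lowest measurable signal or the probe's own if that was larger. The bound reached 2-fold for 1968 of the former and 160 of the latter. Atp6ap1, a subunit of the lysosomal proton pump, was at least 48.8-fold higher in heavy polysomes, Arhgap1 at least 37.0-fold, Emilin1, a glycoprotein of elastic fibres, at least 36.6-fold, and Prpf8, the core of the spliceosome, at least 20.2-fold. In the other direction Cdcp1 was at least 37.8-fold, Usp29 at least 20.5-fold and the noncoding Mirg at least 11.1-fold higher in top. These were chosen after their values were seen. The part of the top array's lower signal in these counts was not tested.

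The labelled cell type was checked against its markers. Of 12 fibroblastic stromal markers 11 were measured on both arrays, Pdpn with 7.43 in top, 8.46 in light and 8.82 in heavy and Pdgfrb with 12.78, 13.43 and 14.22 among them. Differences were 2.64 for Col1a2, 1.44 for Pdgfrb, 1.39 for Pdpn, 0.62 for Col1a1, 0.58 for Cxcl12 and 0.23 for Pdgfra. Negative were Vcam1 at -0.10, Icam1 at -0.25, Thy1 at -0.43, Ccl19 at -0.54 and Ltbr at -1.33. Ccl19, with 5.41 in top and 4.87 in heavy, lay close to the limit of detection. None of 6 endothelial, 8 leukocyte and 5 epithelial markers on the array was measured on both, and 4, 3 and 2 of them were measured on the heavy array alone. Acta2 and Cspg4, the 2 measured markers of smooth muscle and pericytes, were at 1.55 and -0.26. In bulk RNA, fewer cells of a type and less RNA per cell cannot be told apart.

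The second pool of cells gave a like picture of the gradient. In cells given Eif4g3 siRNA 11196 genes were measured, of which 2528 (22.6%) were higher in heavy polysomes and 2484 (22.2%) in top. Of 2174 genes higher in heavy polysomes in control cells and measured in both pools, 1666 (76.6%) were called so in the second pool as well, and 2138 were above 0. Of 2347 genes higher in top, 1896 (80.8%) were called again and 2324 were below 0. Over 10729 genes Pearson's r was 0.91 and Spearman's rho 0.90, and the median absolute difference between the pools was 0.36. Both pools were read from the same spots of the same 2 arrays, so an error of a spot or an array would appear in both, and genes are not independent replicates.

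**Figure D5:**
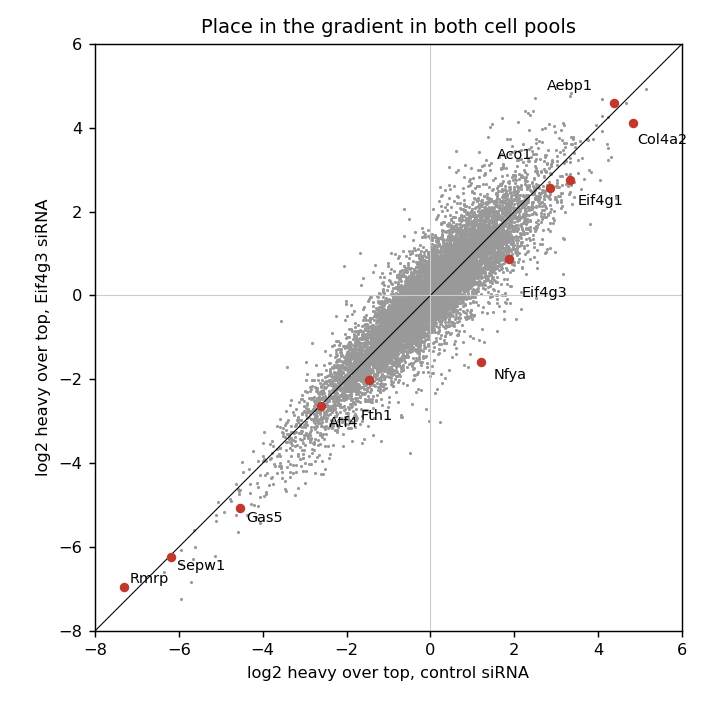
Log2 heavy over top signal of 10729 genes in cells given Eif4g3 siRNA (y axis) against cells given control siRNA (x axis), with the line of equality and named genes in red. Most genes lie along the line, from Rmrp at -7.32 and -6.97 to Col4a2 at 4.84 and 4.13, and Nfya lies off it at 1.20 and -1.59.

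The start of the mRNA was also described by 2 simple features in 7992 measured coding genes, added after the values had been seen. Genes with an ATG in the first 50 bases after every annotated start numbered 2166 and had a median difference of -0.01, with 19.2% higher in heavy polysomes and 21.8% in top. The other 5826 genes had a median of 0.16, with 23.4% and 17.4%. Genes in the lowest of 5 classes of GC content of those bases had a median of -0.06 and those in the highest 0.18, and the rank correlation across genes was 0.05. These windows can run past the first exon, so an ATG there need not be in the mRNA.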

How the data were processed

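The deposited scanner files hold linear spot intensity in 2 channels. Per the file headers, the software was Agilent Feature Extraction 10.5.1.1 and probe positions are on mm8. Other columns of the deposited files used here are flags and names. Per the labels, Cy3 held control siRNA RNA and Cy5 Eif4g3 siRNA RNA on all 3 arrays, with no dye swap.

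For each array, local median background was subtracted from the mean green signal, outlier and control spots were left out and spots of a probe averaged. Probes well above background on both arrays (14745 of 41174) were put on the log2 scale and quantile normalized between top and heavy; light signals were placed on the same scale by rank. Probes of a gene were averaged. The Eif4g3 siRNA channel was treated alike. No p-value was computed, since each fraction had 1 array. Named are the 15 highest and 15 lowest genes (at least median signal, all probes past 2-fold), the 10 highest and lowest with at least 2 probes, 3 highest and 3 lowest per list of 46 lists, whole lists of noncoding RNA, stress response and iron genes, and genes said to be chosen later; a few genes under this rule are not reported here. Members and lists were chosen with earlier results of these data known. Gene classes follow RefSeq (10099 genes matched).

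On simulated data of 14745 probes with 100 raised and 100 lowered 3-fold, 82% of each were called, and 1.85% of unchanged probes. The simulated noise was chosen and not estimated from these arrays, and far fewer probes were changed than the data had calls. These shares therefore follow from the settings and give no rate of false calls in the data. Python 3.11.15, R 4.3.3 and limma 3.58.1 (normexp) were used. The number of arrays limits precision. Alternatives covered normalization, background, signal column, filters, probe choice and outlier spots.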

Additional observations from a re-analysis of the deposited data

Results flagged for a closer look

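Heavy over top values pointed past 2-fold in opposite directions in the control and the Eif4g3 siRNA pool in 5 of the 10729 genes measured in both. Eno1, a glycolytic enolase, was at 1.01 in control and -1.004 in siRNA-treated cells, and Gmps, a purine synthesis enzyme, at 1.28 and -1.12. Nfya, a subunit of a CCAAT-binding factor, was at 1.20 and -1.59, and Tnks1bp1 at 1.17 and -1.06. Ghrl, the ghrelin precursor, went the other way, at -1.68 and 1.003. Eno1 and Ghrl rest on 1 probe, the others on 2. With 1 array for each fraction the difference was not tested.

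For 5 gene lists the medians of the pools lay on opposite sides of the medians of all genes, 0.03 in control and 0.05 in siRNA-treated cells, at least 0.5 apart, and these differences were not tested either. Integrins were at 0.64 in control and 0.01 in siRNA-treated cells, very large cytoskeletal and motor proteins at 0.94 and -0.12, and initiation factors at 0.46 and -0.03. The respiratory chain was at -0.03 and 0.60, and histones at -0.15 and 0.46. Single members with a wide gap were Myh9, at 1.78 and -0.16, and Macf1, at 1.82 and 0.27.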

How the results depend on the processing

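No paired analysis was possible because each fraction had 1 array. Of 2346 values of named genes under 8 alternatives, 2192 kept their direction and side of 2-fold, 93 fell short of it, 45 newly passed it and 16 reversed. Counts higher in heavy polysomes and in top were 1361 and 3955 with median scaling, 3767 and 4536 of 27707 genes without the filter on dim probes, and 1341 and 1298 of 6230 genes with brighter probes only; the 5 other alternatives stayed within 1.5 times the main counts. The lncRNA median less the coding median, -1.55, was -2.60 with median scaling and -2.35 with brighter probes, and the share of heavy-side genes called again in the second pool was 71.55% with brighter probes. Of list medians at least 0.5 from that of all genes, those reversed were contractile and actin genes with median scaling (-0.10) and noncoding RNA with loess (0.052). Lists nearer to it that changed sign under some alternative were elongation factors (to 0.31), zinc fingers (to 0.016), the respiratory chain (to 0.050), the stress response (to -0.35), iron (to 0.076), mRNA decay (to 0.41), immediate early (to -0.15) and interferon-stimulated genes (to 0.077). Genes reversed with median scaling were Vim (-0.53), Fos (-0.24) and Csf1 (-0.22); without the filter Itga1 (0.70), Clk4 (0.12), Txnrd2 (0.078), Per2 (0.29) and Zfp644 (0.28); with brighter probes Stat2 (0.056), Dcp2 (0.023), Exosc1 (0.073), Tubb3 (0.65) and Rab28 (1.65); with the brightest probe Btf3 (0.52), Eif5 (0.069) and Sfrs10 (1.67). The cause was not tested, beyond the smaller and larger gene numbers of the filters. Medians by protein length were not run, and no replicate could be left out. Signal over background limits the top array most, where negative controls less local background averaged 6.12 against an upper quartile of 40.5, and 16.5 against 1078 on the heavy array.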

Other observations

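Vesicle and transport genes were described by name families. Over all genes 21.2% were higher in heavy polysomes and 21.5% in top, and the mRNA decay list below lay under both shares. Rab genes, which direct vesicle traffic, had 15 of 45 members higher in heavy polysomes and 4 in top, with Rab21 at 2.08, Rab1 at 2.00 and Rab12 at -2.16, the last with an SD of 0.33 over 2 probes, and Rab7l1, Rab28 and Rab22a the others in top. Solute carriers had 31 of 127 members on the heavy side, near the share of all genes, and 14 in top, below it. The mitochondrial ATP/ADP exchanger Slc25a5 was at 3.10. Ubiquitin-conjugating enzymes had 9 of 28 members on the heavy side and 2 in top, Ube2q2 at -1.77 and Ube2s at -1.11. Genes of mRNA decay had 5 of 33 members in top, Dcp2 at -2.25, Cnot7 at -1.73, Exosc1 at -1.58, Ddx6 at -1.44 and Exosc9 at -1.14, and 4 on the heavy side, Xrn2 at 1.83, Cnot8, Parn at 1.03 and Exosc7 at 1.01. Among 9 clock genes Arntl was at 2.62, Clock at 1.24 and Per2 at -1.88, and Per1, measured on the heavy array alone, was at least 13.0-fold higher in heavy polysomes.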
